A study of Mus musculus with 10 samples.

Results

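Contractile proteins and the transcription factors of mesenchymal transition were described with 10 genes in the corneal endothelium of Slc4a11-/- mice (KO) and Slc4a11+/+ mice (WT). Contractile genes were Acta2, Tagln, Cnn1, Myl9, Tpm1 and Tpm2, and the transcription factors were Snai1, Snai2, Zeb2 and Twist1. They were taken by name from a table of 55450 genes, of which 17729 had enough counts to be tested. Of the 10 genes, 9 were tested, and Cnn1 was not.

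Slc4a11 encodes a membrane transporter of the corneal endothelium, the cell layer that lines the back of the cornea and pumps fluid out of the stroma, and mutations of the human gene cause corneal endothelial dystrophy. All mice were C57BL/6 at postnatal week 12. There were 5 KO libraries and 5 WT libraries, named here by genotype and number, and each pooled 6 peelings from 3 animals, so p-values measure the spread between pools. A peeling can carry cells of the neighbouring stroma, iris angle or epithelium. The labels do not say which part of Slc4a11 is deleted or how the KO line was made.

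Smooth muscle and myofibroblasts contract with smooth muscle actin and myosin II, which is switched on when myosin light chain kinase phosphorylates the regulatory light chain. Calponin, transgelin and the tropomyosins bind along the actin filament, and many of these genes are driven by serum response factor (SRF) and its myocardin-related cofactors from a DNA element called the CArG box. The SNAI, ZEB and TWIST factors repress epithelial genes such as E-cadherin and accompany the change of epithelia to mesenchymal cells. In corneal endothelium this change is known from wounds and from culture, where cells become elongated and gain smooth muscle actin.

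Of the 9 genes tested, 2 fell in KO and none rose. Both that fell were contractile. Tagln was at 56.9% of its WT mean in KO and Myl9 at 83.8%, while 7 genes did not pass the test. Over all 17729 genes, 7.73% fell and 7.59% rose, or 15.3% in either direction, by edgeR's quasi-likelihood test at an adjusted p under 0.05. The median log2 fold change was -0.23 over the 5 contractile genes tested, 0.03 over the 4 transcription factors and 0.00 over all genes tested. KO and WT libraries did not overlap for these 2 genes alone, both with KO lower. Of all genes tested, 6.16% had KO libraries below all WT libraries, and 12% did not overlap in either direction. In bulk samples, fewer cells of a type and less RNA per cell cannot be told apart.

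**Figure D1:**
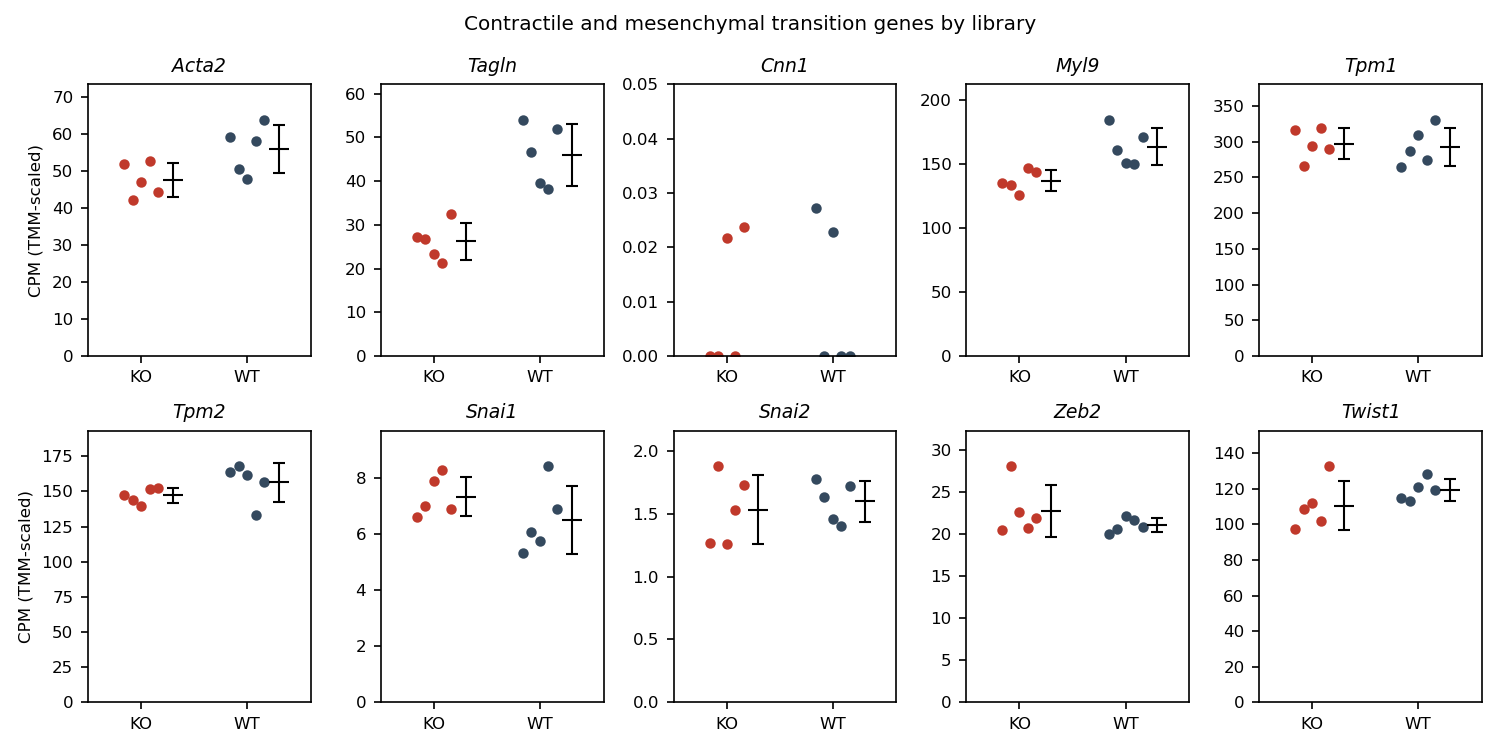
CPM (a count per 1000000 counts of its library, scaled by TMM) of the 10 genes in each of 5 KO and 5 WT libraries, 1 panel per gene, with the mean and SD drawn where the gene was tested. The KO and WT points are separate for Tagln and Myl9 and overlap for the others, and Cnn1 lies at or near 0 in all libraries.

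The labels were checked first. Slc4a11 fell to 95.4 ± 16.2 CPM in KO, against 3791 ± 362 CPM in WT (SD, n = 5 each). All 5 KO libraries lay between 70.1 and 114 CPM and all 5 WT libraries between 3489 and 4357 CPM, a log2 fold change of -5.31 ± 0.14 (SE; edgeR adjusted p = 9.45e-10). Total counts per library were 36026193 to 51008996. The labelled tissue carried its markers at high level, with Aqp1, a water channel, at 12242 CPM in KO and 11486 CPM in WT, and Col8a2, a collagen of Descemet's membrane, at 7619 CPM in KO and 7374 CPM in WT. Dcn, a proteoglycan of stromal keratocytes, was more abundant still, at 26092 CPM in KO and 28011 CPM in WT.

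Per kilobase of exon, Myl9 was the highest of the 9 tested genes, at 118 ± 7.15 CPM per kb in KO and 141 ± 12.5 CPM per kb in WT. Twist1 followed at 67.9 ± 8.34 in KO and 73.3 ± 3.71 in WT, then Tpm2 at 50.6 ± 1.92 in KO and 53.8 ± 4.75 in WT, and Tpm1 at 45.8 ± 3.38 in KO and 45.2 ± 4.11 in WT (all CPM per kb). Acta2, at 21.7 ± 2.11 CPM per kb in KO and 25.5 ± 2.99 in WT, stood below the tropomyosins. Tagln had 13.2 ± 2.14 CPM per kb in KO and 23.2 ± 3.56 in WT, so that it lay close to Acta2 in WT, within their spread, and further below it in KO. Snai1 reached 4.52 ± 0.436 CPM per kb in KO and 4.00 ± 0.749 in WT, Zeb2 1.14 ± 0.155 in KO and 1.05 ± 0.0418 in WT, and Snai2 0.758 ± 0.136 in KO and 0.790 ± 0.0796 in WT. The order of the genes was the same in both genotypes. Tpm2 was above Tpm1 per exon length in all 10 libraries, and Twist1 stood well above the 3 other transcription factors.

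**Figure D2:**
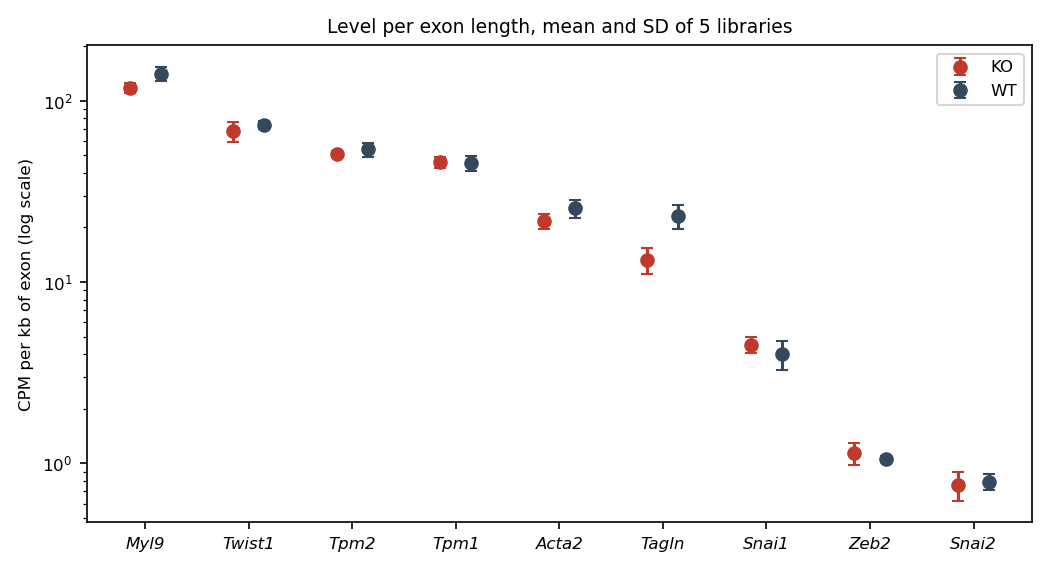
Mean CPM per kb of exon (log scale) with the SD of 5 libraries, for the 9 tested genes in order of level, KO beside WT. Myl9, Twist1, Tpm2 and Tpm1 are highest, Snai2 and Zeb2 are lowest, and Tagln is the gene with the widest gap between KO and WT.

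Among the contractile genes, Tagln moved most. Tagln encodes transgelin, also called SM22, an actin-binding protein of smooth muscle, and lies on chromosome 9 (GRCm38, chr9:45929619-45936058, minus strand). It had 27.2, 26.8, 23.4, 21.4 and 32.5 CPM in KO 1 to KO 5, against 54.0, 46.7, 39.7, 38.1 and 51.8 CPM in WT 1 to WT 5. Every KO library was below every WT library, with the highest KO value in KO 5 and the lowest WT values in WT 3 and WT 4. The mean was 26.2 ± 4.24 CPM in KO and 46.1 ± 7.07 CPM in WT. Tagln fell by 0.81 on the log2 scale (SE 0.12, 95% interval -1.08 to -0.54; edgeR adjusted p = 0.00131), and the call held in all 21 alternative fits, between -1.04 and -0.74. Tagln shares 108 bases of exon, 5.43% of its exon length, with Pcsk7 on the opposite strand, which did not pass the test at 22.6 CPM in KO and 24.7 CPM in WT. The antisense gene Gm48529 covers 62.4% of its exon length and had 1.16 CPM in KO and 1.18 CPM in WT. The sources used here do not give the strand setting of the authors' counting, so the split of reads between Tagln and these neighbours is uncertain.

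Myl9 encodes the regulatory light chain of smooth muscle and nonmuscle myosin II, the substrate of myosin light chain kinase, and lies on the chromosome of Slc4a11 at a distance of 26.1 Mb (chr2:156775420-156781658, plus strand). It had 135, 133, 126, 146 and 144 CPM in KO 1 to KO 5, against 184, 160, 151, 150 and 171 CPM in WT 1 to WT 5. All KO libraries were below all WT libraries, though KO 4 and KO 5 came close to WT 3 and WT 4. The mean was 137 ± 8.30 CPM in KO and 163 ± 14.5 CPM in WT, and Myl9 fell by 0.26 on the log2 scale (SE 0.07, 95% interval -0.41 to -0.10; edgeR adjusted p = 0.029). The call was lost in 11 of 21 alternative fits, with log2 fold changes between -0.29 and -0.21 in those 11. Among them were the fits without KO 1 (adjusted p = 0.0695), KO 2 (0.0697), KO 3 (0.0568), WT 1 (0.0521), WT 2 (0.0506) or WT 5 (0.0741), and those with the epithelial markers (0.0902) or the keratocyte markers (0.0776) as a covariate, all by edgeR.

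Acta2, the smooth muscle actin that marks myofibroblasts, did not pass the test (chr19:34241090-34255590, minus strand). It had 51.9, 42.1, 47.0, 52.7 and 44.4 CPM in KO 1 to KO 5, against 59.2, 50.6, 47.8, 58.2 and 63.9 CPM in WT 1 to WT 5. The groups overlapped, with 3 KO libraries below all WT libraries and 3 WT libraries above all KO libraries. The mean was 47.6 ± 4.63 CPM in KO and 55.9 ± 6.56 CPM in WT, a log2 fold change of -0.23 ± 0.09 (SE; 95% interval -0.43 to -0.04; edgeR adjusted p = 0.0959). It was called in none of the 21 alternative fits, where the adjusted p ran from 0.0554 to 0.477.

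The tropomyosins, which coat actin filaments and gate their contact with myosin, did not pass the test. Tpm1 (chr9:67022590-67049406, minus strand) had 316, 266, 295, 320 and 290 CPM in KO 1 to KO 5, against 265, 287, 309, 274 and 331 CPM in WT 1 to WT 5. Its log2 fold change was 0.02 ± 0.08 (SE; 95% interval -0.14 to 0.18; edgeR adjusted p = 0.89). Tpm2 (chr4:43514711-43523765, minus strand) had 148, 144, 139, 152 and 153 CPM in KO 1 to KO 5, against 164, 168, 161, 133 and 157 CPM in WT 1 to WT 5. WT 4 held the lowest Tpm2 value of all 10 libraries, below every KO library, while WT 1, WT 2, WT 3 and WT 5 were above them. The Tpm2 log2 fold change was -0.09 ± 0.07 (SE; 95% interval -0.23 to 0.05; edgeR adjusted p = 0.384). The ratio of Tpm2 to Tpm1 per exon length was 1.11 ± 0.0776 in KO and 1.20 ± 0.139 in WT, with overlapping ranges of 1.04 to 1.21 in KO and 1.06 to 1.38 in WT.

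Cnn1, the calponin of differentiated smooth muscle (chr9:22099216-22109630, plus strand), was close to undetected. It had 0, 0, 1, 0 and 1 reads in KO 1 to KO 5, against 1, 0, 1, 0 and 0 reads in WT 1 to WT 5. The 4 reads in all are too few for a test or a fold change. Among the other smooth muscle genes, Des, the intermediate filament desmin, had 2 to 11 reads per library, and Myocd, the cofactor that drives smooth muscle genes, had 0 or 1.

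Of the transcription factors, none of the 4 passed the test, and none had an unadjusted p under 0.05. Snai1, a zinc finger repressor of E-cadherin (chr2:167538195-167542814, plus strand, 36.8 Mb from Slc4a11), had 6.60, 6.99, 7.87, 8.27 and 6.89 CPM in KO 1 to KO 5, against 5.32, 6.08, 5.76, 8.40 and 6.89 CPM in WT 1 to WT 5. WT 1, WT 2 and WT 3 were below all KO libraries, but WT 4 was above them all. The log2 fold change of Snai1 was 0.17 ± 0.13 (SE; 95% interval -0.10 to 0.45; edgeR adjusted p = 0.375).

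Snai2, the related repressor also called Slug (chr16:14705852-14709385, plus strand), was the least abundant transcription factor in CPM as well as per length. It had 1.26, 1.88, 1.26, 1.53 and 1.73 CPM in KO 1 to KO 5, against 1.77, 1.63, 1.46, 1.40 and 1.72 CPM in WT 1 to WT 5, from 53 to 89 reads per library. KO 2 was the highest and KO 1 and KO 3 the lowest of the 10 libraries, with the WT libraries between them. The log2 fold change was -0.06 ± 0.15 (SE; 95% interval -0.39 to 0.27; edgeR adjusted p = 0.829).

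Zeb2, a zinc finger and homeodomain repressor (chr2:44983632-45117395, minus strand, 85.6 Mb from Slc4a11), had 20.4, 28.0, 22.6, 20.6 and 21.9 CPM in KO 1 to KO 5, against 20.0, 20.5, 22.1, 21.6 and 20.9 CPM in WT 1 to WT 5. KO 2 stood above the other 9 libraries, which lay close together. The log2 fold change was 0.11 ± 0.08 (SE; 95% interval -0.07 to 0.29; edgeR adjusted p = 0.378). Its antisense gene Zeb2os shares 3.27% of its exon length and had 1.02 CPM in KO and 0.879 CPM in WT.

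Twist1, a basic helix-loop-helix factor of neural crest and mesoderm (chr12:33957671-33959829, plus strand), had 97.2, 109, 112, 102 and 133 CPM in KO 1 to KO 5, against 115, 113, 121, 128 and 119 CPM in WT 1 to WT 5. KO 1 to KO 4 were below all WT libraries, while KO 5 was above them all. The log2 fold change was -0.11 ± 0.08 (SE; 95% interval -0.28 to 0.06; edgeR adjusted p = 0.368).

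**Figure D3:**
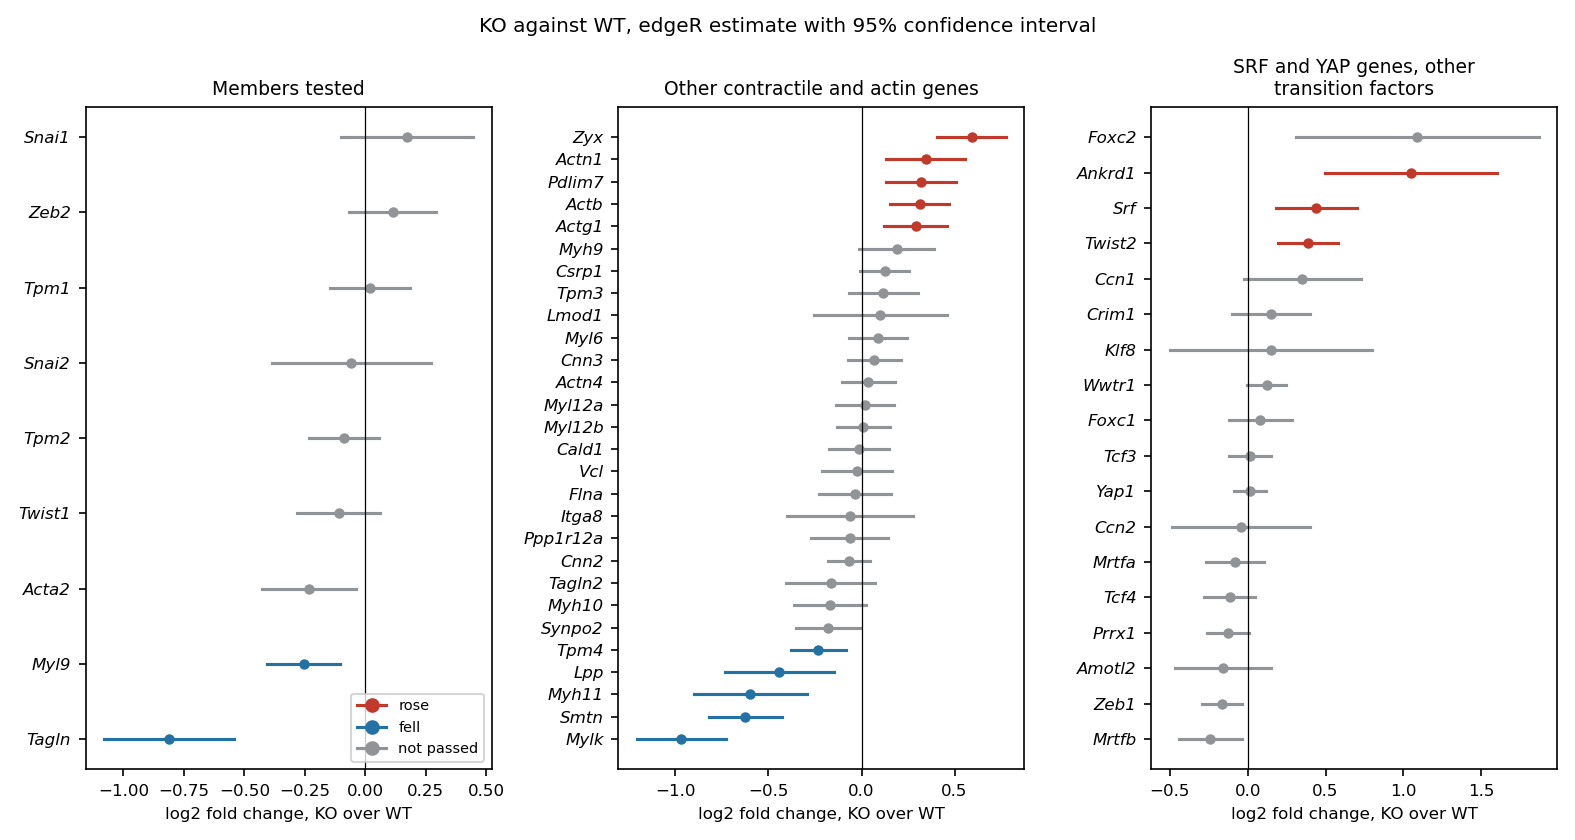
Log2 fold changes of KO over WT with 95% intervals from edgeR, for the 9 tested genes, for other contractile and actin genes, and for SRF, YAP and other transition factors. Genes that rose, fell or did not pass the test differ in colour: Tagln and Myl9 lie left of 0, and Zyx and Mylk stand apart on opposite sides among the other contractile genes.

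Of 28 other genes of the contractile apparatus, 26 were tested: 5 fell, 3 rose and 18 did not pass, with a median log2 fold change of -0.02. Mylk, the myosin light chain kinase that phosphorylates the Myl9 protein, had 10.6, 13.1, 8.34, 10.3 and 10.8 CPM in KO 1 to KO 5, against 20.4, 21.8, 21.1, 17.7 and 23.0 CPM in WT 1 to WT 5. Every KO library was below every WT library, and Mylk fell by 0.97 on the log2 scale (SE 0.11; edgeR adjusted p = 0.000179). Smtn, the actin-binding smoothelin of contractile smooth muscle, averaged 15.9 ± 2.08 CPM in KO and 24.5 ± 1.97 CPM in WT without overlap, and fell by 0.62 (SE 0.09; edgeR adjusted p = 0.000997). Both calls held in all 21 alternative fits. Myh11, Tpm4 and Lpp, named after their values were seen, also fell. Myh11, the smooth muscle myosin heavy chain, averaged 26.2 ± 5.86 CPM in KO, where KO 5 was lowest at 16.5 CPM, and 39.6 ± 3.36 CPM in WT (log2 fold change -0.60; edgeR adjusted p = 0.015), and its call was lost with the epithelial markers as a covariate (-0.40, adjusted p = 0.164). Tpm4 (-0.23, edgeR adjusted p = 0.0381) kept its call without KO 5 but lost it without any other library (up to 0.0894) and with the keratocyte markers as a covariate (-0.22, 0.109). Tpm4 stayed called by edgeR with KO 1, KO 2 and KO 5 left out (-0.32, adjusted p = 0.0185). It did so too with the epithelial markers as a covariate (-0.35, 0.0178). Lpp (-0.44, edgeR adjusted p = 0.0455) kept its call without KO 3 but lost it without any other library (up to 0.111). Lpp was at -0.19 (adjusted p = 0.41) with the epithelial markers as a covariate and at -0.16 (0.384) with KO 1, KO 2 and KO 5 left out, and was not called with the keratocyte markers (-0.52, 0.0655) or the smooth muscle and pericyte markers (-0.44, 0.0533) as a covariate. With libraries scaled by total counts, 3 of the 26 fell and the median was 0.01.

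The 3 genes that rose were Zyx, Pdlim7 and Actn1. Zyx encodes zyxin, a focal adhesion protein, and had 39.7, 31.6, 38.8, 43.0 and 37.4 CPM in KO 1 to KO 5, against 24.5, 24.9, 22.5, 25.8 and 28.7 CPM in WT 1 to WT 5. Every KO library was above every WT library, and Zyx rose by 0.59 on the log2 scale (SE 0.08; edgeR adjusted p = 0.000874), a call that held in all 21 alternative fits. Pdlim7, an adaptor of the actin cytoskeleton, averaged 24.2 ± 2.38 CPM in KO and 19.4 ± 1.97 CPM in WT (log2 fold change 0.32; edgeR adjusted p = 0.0266). Its call was lost without KO 3, KO 4 or WT 3 (adjusted p 0.051, 0.0623 and 0.0681), and with the keratocyte markers as a covariate (0.23, adjusted p = 0.149). Actn1, the crosslinker alpha-actinin 1, was named after its values were seen and averaged 247 ± 36 CPM in KO and 195 ± 15.3 CPM in WT (0.34; edgeR adjusted p = 0.0329). Its call was lost without KO 1, KO 3, KO 4, WT 1, WT 2 or WT 3 (adjusted p 0.0507 to 0.0796). It was also lost with the keratocyte markers as a covariate (0.33, adjusted p = 0.109). With KO 1, KO 2 and KO 5 left out, edgeR still called Pdlim7 (0.45, adjusted p = 0.0285) and Actn1 (0.54, 0.00573). Both were also called with the epithelial markers as a covariate (Pdlim7 0.41, 0.0387, Actn1 0.53, 0.00518).

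Among the other actin genes, both tested rose, while Acta2 did not. Actb, beta-actin, averaged 1417 ± 99.4 CPM in KO and 1141 ± 86.5 CPM in WT without overlap (log2 fold change 0.31 ± 0.07, SE; edgeR adjusted p = 0.0149). Actg1, gamma-actin, averaged 986 ± 79.3 CPM in KO and 805 ± 69.5 CPM in WT (0.29 ± 0.08, SE; edgeR adjusted p = 0.0259). Acta1 had 1 to 9 reads per library, and Actc1 and Actg2 had 0 to 5 each. Actin genes are alike in sequence and the sources used here do not give how reads with several matches were handled, so reads could pass between them. The ratio of Acta2 to Actb per exon length was 0.0410 ± 0.00331 in KO and 0.0597 ± 0.00449 in WT, and its ranges of 0.0364 to 0.0442 in KO and 0.0559 to 0.0662 in WT did not overlap. Neither Actb (0.29, adjusted p = 0.17) nor Actg1 (0.22, 0.266) was called by edgeR when KO was represented by KO 3 and KO 4 alone, nor with the epithelial markers as a covariate (0.26, 0.186 for Actb and 0.21, 0.283 for Actg1). The Actg1 call was also lost without KO 1, WT 2, WT 3, WT 4 or WT 5 (adjusted p 0.0501 to 0.064).

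Of 11 regulators and targets of SRF, its cofactors and YAP, 10 were tested, 2 rose and none fell. Srf had 28.0, 24.1, 34.7, 30.5 and 20.8 CPM in KO 1 to KO 5, against 17.8, 22.1, 21.0, 19.8 and 21.1 CPM in WT 1 to WT 5. KO 1 to KO 4 were above all WT libraries and KO 5 was within them, and Srf rose by 0.44 (SE 0.12; edgeR adjusted p = 0.0285). Its call was lost without KO 1, KO 4, WT 1, WT 3, WT 4 or WT 5 (adjusted p 0.0518 to 0.0669). It was also lost with the keratocyte markers as a covariate (0.31, adjusted p = 0.166). By edgeR, Srf stayed called with KO 1, KO 2 and KO 5 left out (0.68, adjusted p = 0.00217). The same held with the epithelial markers as a covariate (0.64, 0.00618). Ankrd1, a target of YAP, averaged 3.09 ± 1.18 CPM in KO and 1.49 ± 0.267 CPM in WT, with overlapping ranges. It rose (log2 fold change 1.05 ± 0.25, SE; edgeR adjusted p = 0.017), and also lost its call with the keratocyte markers as a covariate (0.66, 0.154). Ankrd1 stayed called by edgeR with KO 1, KO 2 and KO 5 left out (1.52, adjusted p = 0.00107). It did so too with the epithelial markers as a covariate (1.34, 0.0134).

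The CArG box is a run of A and T bases between CC and GG that SRF binds. It was searched on both strands as CCWWWWWWGG, where W is A or T, in the 250 bases before gene starts in RefSeq (GRCm38.p6). Looser forms with 1 other letter, such as ccctatatgg in the window of Acta2, were not counted, so a window without a match can still hold one. Windows were given for 8 of the 10 genes, not for Tagln and Snai2. A gene with several windows was counted if any of them held a match. The box was in 1.47% of 32851 windows, in 1 of the 5 contractile genes with a window, Myl9, and in none of the 3 transcription factors with one. It was also in 3 of 27 other contractile genes with a window, Vcl, Cnn2 and Myl6, none of which passed the test, and in the windows of Acta1 and Actc1, which were not tested, and of Actg1 and Srf. Those of 3 genes are shown because Myl9 fell while Actg1 and Srf rose; each runs 5′ to 3′ on the gene's strand, with the CArG box in capitals. The box ends 151 bases before the start in Myl9 (chr2:156775214-156775463, plus strand), 80 bases in Actg1 (chr11:120348496-120348745, minus strand), and 72 and 52 bases in Srf (chr17:46556163-46556412, minus strand).
Myl9: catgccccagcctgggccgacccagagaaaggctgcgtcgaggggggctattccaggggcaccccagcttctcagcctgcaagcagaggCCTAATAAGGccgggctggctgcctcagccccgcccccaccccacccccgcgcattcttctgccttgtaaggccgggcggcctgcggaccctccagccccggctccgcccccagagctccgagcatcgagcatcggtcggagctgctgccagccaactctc
Actg1: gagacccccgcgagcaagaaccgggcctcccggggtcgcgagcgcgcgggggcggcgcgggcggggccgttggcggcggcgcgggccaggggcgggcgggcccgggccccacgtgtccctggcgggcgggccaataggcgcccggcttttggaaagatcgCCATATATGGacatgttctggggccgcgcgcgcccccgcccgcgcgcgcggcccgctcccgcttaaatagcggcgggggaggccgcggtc
Srf: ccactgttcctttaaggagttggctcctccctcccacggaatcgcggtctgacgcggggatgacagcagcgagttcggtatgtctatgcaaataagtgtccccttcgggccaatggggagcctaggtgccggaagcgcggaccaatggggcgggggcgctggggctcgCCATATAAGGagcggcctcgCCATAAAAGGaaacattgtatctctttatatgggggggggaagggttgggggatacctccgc
The E-box CAGGTG, read by SNAI and ZEB factors, was in 17.2% of all windows and in that of Snai1 among the 8 genes. CATTCC, read by the TEAD partners of YAP, was in 12.6% of all windows. It was in the windows of Acta2 and Tpm1, and in 1 of the 4 windows of Zeb2. TATAAA, the TATA box, was in 12.4% of all windows and in that of Twist1. These motifs were also searched on both strands, and a match is only these letters in the window.

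Of 9 other transition factors, 8 were tested, and 1 rose. Twist2, the paralog of Twist1, had 39.2, 37.4, 36.2, 37.7 and 43.2 CPM in KO 1 to KO 5, against 30.3, 27.4, 27.6, 36.6 and 26.3 CPM in WT 1 to WT 5. KO libraries were above WT 1, WT 2, WT 3 and WT 5, and WT 4 was above KO 3. Twist2 rose by 0.39 (SE 0.09; edgeR adjusted p = 0.0131), and lost its call when KO 1, KO 2 and KO 5 were left out (0.32, 0.159) and with the epithelial markers as a covariate (0.31, 0.132). The ratio of Twist1 to Twist2 per exon length was 5.56 ± 0.503 in KO and 7.93 ± 0.826 in WT, with separate ranges of 4.83 to 6.03 in KO and 6.83 to 8.85 in WT. Zeb1, the paralog of Zeb2, did not pass the test at 83.3 ± 5.40 CPM in KO and 93.4 ± 5.21 CPM in WT (log2 fold change -0.17; edgeR adjusted p = 0.0802), and did without KO 3 (-0.20, 0.0393). The ratio of Zeb1 to Zeb2 per exon length was 7.21 ± 0.907 in KO and 8.65 ± 0.626 in WT, with separate ranges of 5.80 to 7.87 in KO and 8.14 to 9.68 in WT. The ratio of Snai1 to Snai2 was 6.13 ± 1.30 in KO and 5.16 ± 1.38 in WT, and its ranges overlapped.

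Products linked to the mesenchymal state moved in both directions: of 21 tested, 5 rose and 4 fell, with a median log2 fold change of 0.04. Vim, the intermediate filament vimentin, averaged 316 ± 37.5 CPM in KO and 438 ± 55.9 CPM in WT without overlap, and fell by 0.47 (SE 0.10; edgeR adjusted p = 0.0094). Fn1, fibronectin (log2 fold change -0.47, edgeR adjusted p = 0.0205), and Mmp2, a matrix protease (-0.36, 0.0372), also fell. Neither was called by edgeR with the epithelial markers as a covariate (Fn1 -0.29, 0.278, Mmp2 -0.34, 0.218). Nor were they with the keratocyte markers (Fn1 -0.39, 0.0919, Mmp2 -0.15, 0.278), or with KO 3 and KO 4 alone (0.113 and 0.182). Postn, the matrix protein periostin, averaged 327 ± 53.2 CPM in KO and 233 ± 24.7 CPM in WT, and rose by 0.49 (SE 0.11; edgeR adjusted p = 0.013). Fap, a surface protease of activated fibroblasts, averaged 37.5 ± 2.69 CPM in KO and 28.4 ± 4.44 CPM in WT, and rose by 0.40 (edgeR adjusted p = 0.0174). S100a4, Timp1 and Thy1 made up the 5 that rose. With KO 1, KO 2 and KO 5 left out, 1 of the 21 rose and 2 fell, and with the epithelial markers as a covariate none rose and 1 fell. With the keratocyte markers as a covariate 9 rose and 1 fell. Vim lost its call with the epithelial (-0.49, adjusted p = 0.057) and the keratocyte covariate (-0.31, 0.0688), Postn with the epithelial covariate (0.50, 0.0675), and Fap with the epithelial covariate (0.35, 0.134) and with KO 1, KO 2 and KO 5 left out (0.30, 0.239).

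Of 14 genes of the TGF-beta pathway, which induces contractile genes and transition factors in many cells, all were tested: 1 rose and 2 fell. The ligand gene Tgfb3 rose at 94.7 ± 6.35 CPM in KO and 79.8 ± 6.87 CPM in WT (log2 fold change 0.25; edgeR adjusted p = 0.0342), and lost its call without KO 2, KO 4, KO 5, WT 1, WT 2, WT 3 or WT 5 (0.0516 to 0.074). Smad2, a signal transducer of the pathway, fell at 58.9 ± 4.21 CPM in KO and 70.3 ± 2.17 CPM in WT (-0.26; edgeR adjusted p = 0.01). Tgfb2 fell at 84.4 ± 6.48 CPM in KO and 96.4 ± 2.80 CPM in WT (-0.19; edgeR adjusted p = 0.0467), kept its call without KO 4 and lost it without any other library (up to 0.108). None of these 3 was called with KO 1, KO 2 and KO 5 left out or with the epithelial markers as a covariate, nor was Tgfb3 with the keratocyte markers as a covariate (0.27, 0.0714).

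Of 14 epithelial products, the class that SNAI, ZEB and TWIST factors repress, 12 were tested, 7 rose and none fell, with a median log2 fold change of 2.35. Markers of corneal epithelium were read beside them, and 2 genes that rose, Cdh1 and Epcam, are in both lists. The summed level of the markers was 1812, 578, 55.1, 215 and 3486 CPM in KO 1 to KO 5, against 121, 187, 152, 76.9 and 53.3 CPM in WT 1 to WT 5, and 8 of 10 markers rose. KO 1, KO 2 and KO 5 were far above the WT libraries, KO 4 slightly above, and KO 3 near the lowest. Krt12, the keratin of corneal epithelium, averaged 501 CPM in KO and 39.6 CPM in WT and did not pass, while Krt5, a basal keratin, averaged 394 CPM in KO and 20.7 CPM in WT and rose. With KO 1, KO 2 and KO 5 left out, 1 of the 12 epithelial products rose and the median was 0.30. Krt19, a keratin, had 7.73 ± 8.36 CPM in KO and 0.315 ± 0.217 CPM in WT (log2 fold change 4.62; edgeR adjusted p = 0.0131) and was not called in that fit. Marveld2, the tight junction protein tricellulin, had 1.95 ± 0.629 CPM in KO and 0.911 ± 0.10 CPM in WT (1.10; edgeR adjusted p = 0.00852). Marveld2 was the product that still rose with KO 1, KO 2 and KO 5 left out (1.12, edgeR adjusted p = 0.0102). Of 21 alternative fits, its call was lost in 1, that with the epithelial markers as a covariate (1.00, 0.0607). Tagln was also low in the KO libraries with least epithelial marker RNA, with a log2 fold change of -1.04 for KO 3 and KO 4 alone against WT (edgeR adjusted p = 0.0024), and Myl9 had the same size there without a call (-0.26, 0.182).

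**Figure D4:**
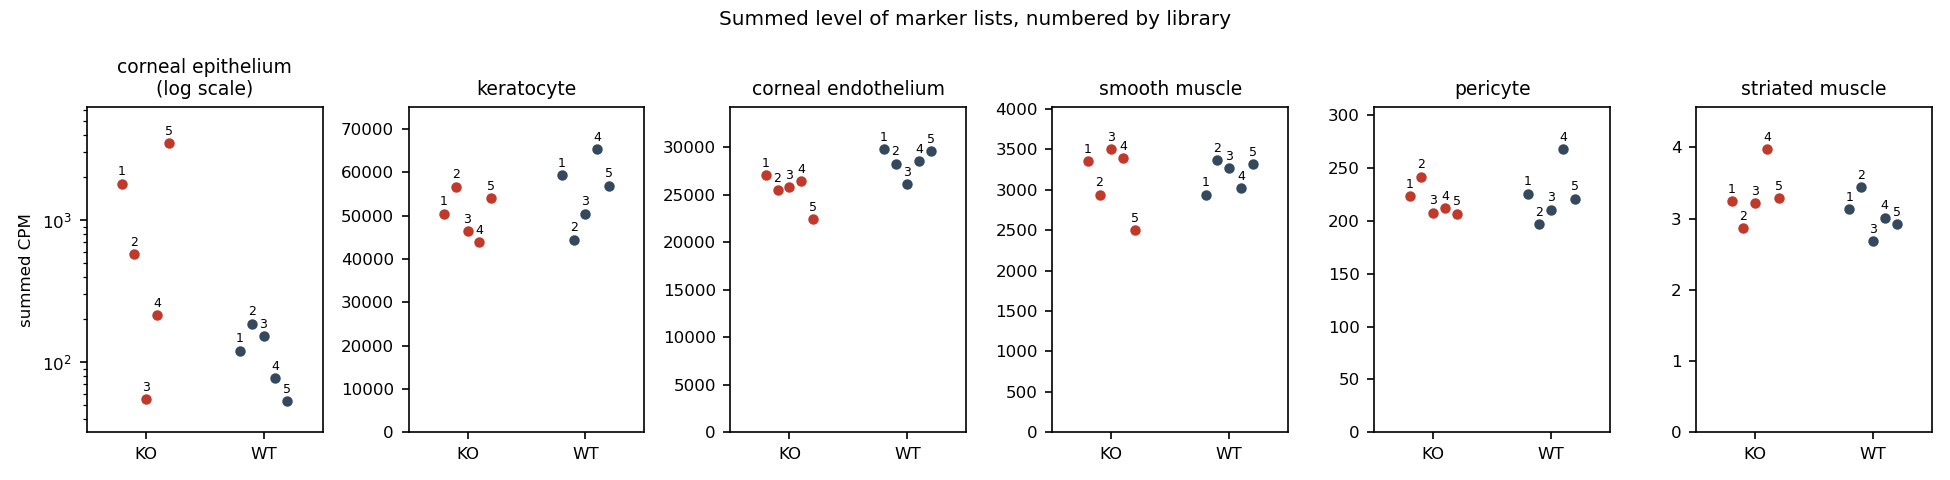
Summed CPM of marker lists in each library, KO left of WT, with points numbered by library (the epithelial panel has a log scale, the others start at 0). Epithelial markers are high in KO 1, KO 2 and KO 5. The ranges of KO and WT overlap for keratocyte, corneal endothelial, smooth muscle, pericyte and striated muscle markers. The corneal endothelial sum includes Slc4a11.

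Markers of contractile cell types were read beside the contractile genes. Of 8 smooth muscle markers, 6 were tested and 3 fell, namely Myh11, Smtn and Hhip, with Myh11 and Smtn also in the list of other contractile genes. Their summed level was 2503 to 3497 CPM in KO and 2937 to 3364 CPM in WT, nearly all from Npnt, a matrix protein, at 3032 CPM in KO and 3046 CPM in WT. Synpo2, an actin-bundling protein, had 58.5 CPM in KO and 66.3 CPM in WT and did not pass. Of 8 pericyte markers, 4 were tested and 1 rose, Abcc9, at 4.42 CPM in KO and 0.886 CPM in WT, while the sum was 207 to 242 CPM in KO and 196 to 267 CPM in WT, mostly Pdgfrb at 206 CPM in KO and 216 CPM in WT. Rgs5, a defining pericyte gene, had 1 to 52 reads per library, and Kcnj8 and Higd1b had at most 4 and 1. Striated muscle markers, with 4 of 8 tested and none called, summed to 2.87 to 3.97 CPM in KO and 2.69 to 3.44 CPM in WT. With the smooth muscle and pericyte markers as a covariate, the log2 fold change was -0.82 for Tagln and -0.26 for Myl9 (edgeR adjusted p = 0.00158 and 0.0288). This covariate averages markers that moved in opposite directions, such as Abcc9 (log2 fold change 2.32) and Hhip (-1.01). It is therefore a weak measure of contractile cell content. No marker was at 0 in all 10 libraries, and the part of these cells in the results was not tested further.

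Other cell types are given by their marker lists. Keratocyte markers summed to 43907 to 56635 CPM in KO and 44455 to 65228 CPM in WT, and 2 of 8 fell, Kera and Ptgds. Corneal endothelial markers summed to 22449 to 27010 CPM in KO and 26095 to 29745 CPM in WT, and 4 of 12 fell, Slc4a11 among them. The sums include Slc4a11 itself, at 70.1 to 114 CPM in KO and 3489 to 4357 CPM in WT. The mean sum was 25413 CPM in KO and 28441 CPM in WT, a smaller gap than that between the Slc4a11 levels alone. Apart from Slc4a11, the mean sum of these markers was therefore not lower in KO. Of blood endothelial markers 2 rose and 1 fell of 8, of trabecular meshwork markers 1 of 5 tested rose, and of Schwann cell markers 4 of 5 rose. None of 7 macrophage markers and none of 3 pigment markers tested was called. Their part in the contractile and transition genes was not tested, apart from the epithelial and keratocyte covariates.

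The genes most like Acta2 over the 10 libraries, by Pearson correlation of log2 CPM among tested genes averaging 5 CPM or more, were Slc1a4 (r = 0.93), Ncstn (0.92), Kansl2-ps (0.90), Nceh1 (0.89) and Hhat (0.88). Of these, Nceh1 fell, at 31.6 CPM in KO and 37.0 CPM in WT (log2 fold change -0.23; edgeR adjusted p = 0.0199), and the others did not pass the test. Those most like Snai1 were Eva1b (r = 0.93), Apba3 (0.91), Ubap2 (0.88), Cstf1 (0.85) and Slc20a1 (0.84), none of which passed. These values are the highest of many and are given as a description, since all genes of a library share its depth and makeup.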

How the data were processed

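The table deposited by the authors holds raw read counts per gene for 10 libraries. Per the labels' protocols, libraries were made with a stranded kit for messenger RNA and read in pairs. Per the submitters' processing notes, reads were handled with HISAT2 2.1.0, cutadapt 2.4, Trim Galore 0.6.4, Subread 1.6.4 and featureCounts on the genome GRCm38.p6. The sources used here do not give their annotation release or strand setting.

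Gene identifiers were matched to GENCODE vM21 for symbols, coordinates and exon lengths. The test was that of edgeR 4.0.16 (R 4.3.3): genes were filtered with filterByExpr (minimum count 10, minimum total 15), libraries scaled by TMM, KO compared with WT by the quasi-likelihood F test without covariates, and p-values adjusted by Benjamini-Hochberg over all 17729 tested genes. A gene was called at an adjusted p under 0.05. CPM used TMM-scaled library sizes, the common biological coefficient of variation was 16.3%, and the fit was checked on simulated counts. Libraries of a genotype differed by more than counting error, with a chi-square of 14.4 to 86.3 per degree of freedom, and were all kept as separate.

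The members and lists were chosen with earlier results of these data known. Named genes were all members, Slc4a11, the actin genes, the 2 called genes of smallest p in each direction per list, the 2 most abundant markers of some lists, and the 5 genes most like Acta2 and Snai1. Genes named outside this rule were named after their values were seen. A gene of the rule was analysed but is not reported here. Alternatives used DESeq2 1.42.0, limma-voom from limma 3.58.1, other scalings and filters, a replicate block, marker covariates, KO without KO 1, KO 2 and KO 5 (the KO libraries with most epithelial marker RNA), and each library left out. Figures were drawn with matplotlib 3.10.9.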

Additional observations from a re-analysis of the deposited data

Results flagged for a closer look

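Zeb2 in KO 2, at 28.0 CPM, was far from the other KO libraries: the gap to the nearest, at 22.6 CPM, was 0.712 of the range of the 5 KO libraries, above Dixon's critical value of 0.71. It was 1 of 18 groups looked at (9 genes in 2 genotypes), and chance flags about 1 in 20 groups.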

How the results depend on the processing

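Tagln was called in all 21 alternatives and no member rose in any. The count of members that fell, 2 in the fit reported, was 1 with total counts, with the epithelial covariate, with the keratocyte covariate and with KO 1, KO 2 and KO 5 left out, and 1 to 2 with each library left out in turn; the gene lost was Myl9. The replicate numbers do not pair the libraries (correlations of same-numbered deviations -0.42 to 0.09); with the number as a replicate block, 1 member fell (Myl9: -0.25, adjusted p = 0.0675), 11 genes of the other lists rose and 750 of all genes rose. Pdlim7, Actn1, Srf, Tpm4, Postn, Tgfb2 and Krt19 also lost their calls under that block. Of all genes, 1346 rose and 1370 fell in the fit reported. With total counts 1555 rose and 1054 fell, and the median log2 fold change over all genes was 0.03. With the epithelial covariate 470 rose and 565 fell. With KO 1, KO 2 and KO 5 left out 527 rose and 578 fell, with fewer samples. Leaving out each library gave 836 to 1532 that rose (836 without WT 3, 850 without WT 5, 895 without KO 1) and 965 to 1666 that fell. In the other lists, 21 rose and 11 fell in the fit reported; 13 rose with limma-voom, 5 rose and 5 fell with the epithelial covariate, 9 rose and 6 fell with KO 3 and KO 4 alone, and 10 to 23 rose and 7 to 9 fell with each library left out. Alternatives for the other lists and their genes were chosen after seeing the data. Fold changes near 0 changed sign: Tpm1 was -0.0611 with the keratocyte covariate and -0.0114 to 0.0657 with each library left out, and Snai2 was -0.1399 to 0.0064. The cause of these shifts was not tested. Cnn1 had too few reads for a test.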
